A study of Mus musculus with 10 samples.

Results

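The class III POU genes of the mouse are Pou3f1, Pou3f2, Pou3f3 and Pou3f4, also known as Oct6, Brn2, Brn1 and Brn4. Every probe whose single gene symbol in the platform annotation was one of these was taken, which gave 5 of 21766 probes and 4 of 15063 named genes: 1 each for Pou3f1, Pou3f3 and Pou3f4 and 2 for Pou3f2. The 2 Pou3f2 probes are named here by the kind of record that annotates them, the RefSeq probe by a RefSeq transcript and the cDNA probe by a cDNA clone. Their ratios were measured between the caudal and the rostral neocortex of mouse embryos at E11.5, when most of the cortical wall is dividing neuroepithelium.

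The tissue came from MF1, an outbred stock, and from C57 (C57Bl\6), an inbred strain, and the labels name no mutation or treatment. A pool joined the left and right cortices of 3 embryos of 1 litter. Its caudal and rostral RNA were converted to amplified cDNA, labelled with Cy5 and Cy3 and hybridised together on a 2-colour oligonucleotide array, and a further array took the same RNAs with the dyes exchanged. The 10 arrays hold 5 pools, 3 of MF1 on 6 arrays and 2 of C57 on 4 arrays. Each pool mixes whole pieces of cortical wall, so a p-value reflects how far such pools differ.

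POU proteins bind DNA through a POU-specific domain joined to a homeodomain and are best known for recognising the octamer motif. Those of class III are made in neural progenitors and neurons, act there beside SOX proteins, and are encoded by genes with a single coding exon. Pou3f2 and Pou3f3 overlap in function in the mouse neocortex, where both are needed for the production and migration of upper layer neurons. Pou3f1 is known from the myelinating Schwann cell and from early neural commitment, and Pou3f4, an X-linked gene, from the inner ear and the striatum.

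Since the results turn on whether these related genes gave like ratios, the bases just upstream of the annotated starts are shown. RefSeq windows around the start (GRCm38.p6, 300 bases each) were matched for 3 of the 4 genes, and the part before the start is printed 5′ to 3′ on the strand of the gene, with CCAAT or its complement ATTGG, the CCAAT box, in capitals.
Pou3f2 (chr4:22488367-22488616, minus strand): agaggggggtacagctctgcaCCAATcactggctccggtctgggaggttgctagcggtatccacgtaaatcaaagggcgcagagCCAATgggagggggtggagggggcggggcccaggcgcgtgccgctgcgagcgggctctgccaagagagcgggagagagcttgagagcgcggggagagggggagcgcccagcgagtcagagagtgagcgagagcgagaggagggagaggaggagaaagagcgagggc
Pou3f3 (chr1:42695518-42695767, plus strand): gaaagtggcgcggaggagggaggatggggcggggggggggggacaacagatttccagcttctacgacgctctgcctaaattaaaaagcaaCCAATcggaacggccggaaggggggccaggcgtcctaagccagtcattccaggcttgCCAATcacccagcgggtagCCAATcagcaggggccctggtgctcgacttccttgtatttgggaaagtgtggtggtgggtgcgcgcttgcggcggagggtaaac
Pou3f4 (chrX:110814129-110814378, plus strand): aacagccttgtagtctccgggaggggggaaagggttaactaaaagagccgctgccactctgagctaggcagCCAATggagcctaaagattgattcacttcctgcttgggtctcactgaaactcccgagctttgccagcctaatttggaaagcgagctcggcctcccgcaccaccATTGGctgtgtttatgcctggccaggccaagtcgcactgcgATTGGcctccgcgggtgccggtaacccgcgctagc
The whole windows held 67.7% G and C for Pou3f2, 60.3% for Pou3f3 and 57.7% for Pou3f4, against a median of 52.7% over all 32851 windows. They held 24, 18 and 15 CpG dinucleotides in that order, against a median of 7. The CCAAT box was found 2 times for Pou3f2 and 3 times each for Pou3f3 and Pou3f4. Over all windows 37.4% held it on either strand and 3.37% held it at least 3 times. The octamer ATGCAAAT, which 1.74% of windows hold, the homeodomain core TAATTA (5.29%), the SOX core ATTGTT (10.7%) and the TATA box TATAAA (13.6%) were searched on both strands and had no match in the 3 windows. The complement of the CCAAT box, ATTGG, and the SOX core share their first 4 letters. A match or its absence describes letters only.

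Values are given as the log2 of caudal over rostral RNA, and a negative one means less RNA caudally. That sign is likely, though no source states it, because each deposited ratio was read as Cy5 over Cy3. Its basis is the dye labels together with Nr2f1, a nuclear receptor with a known caudal gradient, at 1.85 ± 0.22 (SE, n = 5 pools) and 0.57 ± 0.20 on its 2 probes, and Etv1, an FGF target known rostrally, at -1.43 ± 0.22. These were picked from a list of gradient factors that is not uniform: the rostral factors Fgf17, Fgf8 and Pax6 had 0.13, -0.01 and, on 2 probes, 0.10 and 0.02. With the opposite reading every sign would turn together. In ratios of pooled tissue, fewer cells of a type and less RNA per cell cannot be told apart, and without intensities the level of a gene, its signal over background and the identity of the tissue by marker levels were not available. The 5 probes gave 49 of 50 possible array values. The tested probes are those measured with both dyes in at least 2 pools of each strain, 11855 in all. Pou3f1 lacked an array in C57 pool 1 and was left with 1 complete C57 pool, so 4 of the 5 probes were tested.

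Arrays carried shifts of their own. The medians of the pools over the tested probes were -0.18, 0.13 and 0.15 in MF1 and -0.10 and 0.36 in C57, since the deposited ratios are not centred. The 2 arrays of a pool, both turned to caudal over rostral, correlated across probes at -0.25 to 0.03, whereas arrays of 1 dye order correlated at 0.02 to 0.44. Each gene is therefore given by pool first and then by array and dye.

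Across the cortex, 2 of the 4 genes gave a ratio below 0 in all 5 pools, Pou3f4 at 0.80-fold and Pou3f2 on its cDNA probe at 0.69-fold. The other Pou3f2 probe, Pou3f3 and Pou3f1 had pools on both sides of 0. No member passed the test, and the ratios depended on the dye order to different degrees.

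The cDNA probe of Pou3f2, a gene for upper layer neurons and for proneural programs, had the most negative mean of the class. The 3 MF1 pools stood at -0.98, -0.43 and -0.70, and the 2 C57 pools at -0.63 and -0.09. All 5 were below 0, and the strains overlapped on this scale. Relative to the array medians the pools gave -0.80, -0.52 and -0.82 in MF1 and -0.45 and -0.46 in C57. On that scale every MF1 pool lay below both C57 pools, as in 6.49% of the probes measured in all 5 pools. The mean of both strains was -0.53 ± 0.17 (limma, SE, n = 5 pools), 0.69-fold, with a Benjamini-Hochberg adjusted p of 0.983 over all tested probes. It did not pass the threshold of 0.05. Before adjustment its p was under 0.05 and ranked 174 of 11855.

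Of the tested probes, 1.11% had a mean below 0 with an unadjusted p under 0.05, 1.98% had a mean above 0 with such a p, and 3.10% had it in either direction. None passed the adjusted threshold for the mean (0%, smallest adjusted p 0.567). The class III probe that met the unadjusted threshold was 1 of 4 tested, the cDNA probe. Of the 8924 probes measured in all 5 pools, 0.728% were below 0 in every pool and 2.57% were below the array medians in every pool. The cDNA probe and the Pou3f4 probe met both conditions, 2 of the 4 class III probes in that set.

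The RefSeq probe of the same gene, Pou3f2, gave another picture. Its pools stood at -0.35, -0.07 and 0.37 in MF1 and at -0.26 and 0.35 in C57. Values on both sides of 0 occurred in each strain, and the strains overlapped. The mean of both strains was 0.01 ± 0.18 (limma adjusted p = 0.994). After centring of the arrays the pools lay between -0.17 and 0.25, with a mean of -0.04 ± 0.13.

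Within a pool both Pou3f2 probes saw the same RNA on the same arrays. The cDNA probe was below the RefSeq probe by 0.63, 0.36 and 1.07 in the MF1 pools and by 0.37 and 0.43 in the C57 pools. The mean difference, cDNA minus RefSeq probe, was -0.57 with an SD of 0.30 over 5 pools. Its exact sign-flip permutation p was 0.0625, two-sided, the smallest that 5 pools can give, and 0.625 after adjustment over the 10 pairs of class III probes. Centring does not alter a difference within an array. Among the 273 genes with exactly 2 probes measured in all 5 pools, the median size of such a difference was 0.19. In 21 of them (7.69%) it was larger than in Pou3f2, and in as many the probes differed one way in all 5 pools. Averaged to a single value per pool, the 2 Pou3f2 probes gave a mean of -0.26 ± 0.17. The statement on Pou3f2 thus differs with the probe, and which transcripts each probe reads was not tested.

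Pou3f3, the partner of Pou3f2 in upper layer neurons, varied most between pools. The MF1 pools stood at -0.47, -2.03 and 0.50 and the C57 pools at -0.08 and 0.47. The value of MF1 pool 2 was far from the others. It joined 2.14 on the array with Cy5 on the caudal RNA and -6.20 on that with Cy3, which are the highest and the lowest of the 10 array values. The mean of both strains was -0.24 ± 0.38 (limma adjusted p = 0.983), and 0.11 ± 0.24 without MF1 pool 2. The SD over pools was 1.04, exceeded by 8.79% of tested probes, where the median SD was 0.41.

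Pou3f4, the X-linked member, gave the most even values. The MF1 pools stood at -0.33, -0.43 and -0.27 and the C57 pools at -0.49 and -0.09. All 5 were below 0, and the C57 values enclosed those of MF1. The SD over pools was 0.16, smaller than that of 95.2% of tested probes. The mean of both strains was -0.32 ± 0.14, 0.80-fold, with a limma adjusted p of 0.983. Relative to the array medians the pools lay between -0.52 and -0.14 and the mean was -0.37 ± 0.12.

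Pou3f1 was measured on 9 arrays. The 6 MF1 arrays lay between -0.59 and -0.01 and the 3 C57 arrays between 0.01 and 0.72, so the array values of the strains did not overlap, by a narrow gap. Arrays of a pool read the same RNAs and are not replicates of a strain. Of the 15388 probes with a value in all 5 pools, a single dye allowed, 13.2% had every MF1 pool below every C57 pool, as Pou3f1 had. The MF1 pools stood at -0.08, -0.45 and -0.29. In C57, pool 2 stood at 0.47, and pool 1 had 0.01 from a single array, with Cy5 on the caudal RNA. In a fit that allowed a single dye and 1 pool of each strain, over 21150 probes, MF1 gave -0.28 ± 0.23 (limma adjusted p = 0.833) and C57 0.24 ± 0.28 (adjusted p = 1), with pool 1 of C57 entering by its 1 dye. The mean of both strains was -0.02 ± 0.18 (adjusted p = 0.993). Once arrays were centred, MF1 pool 1 stood at 0.11 and C57 pool 2 at 0.10, and the strains overlapped.

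**Figure D1:**
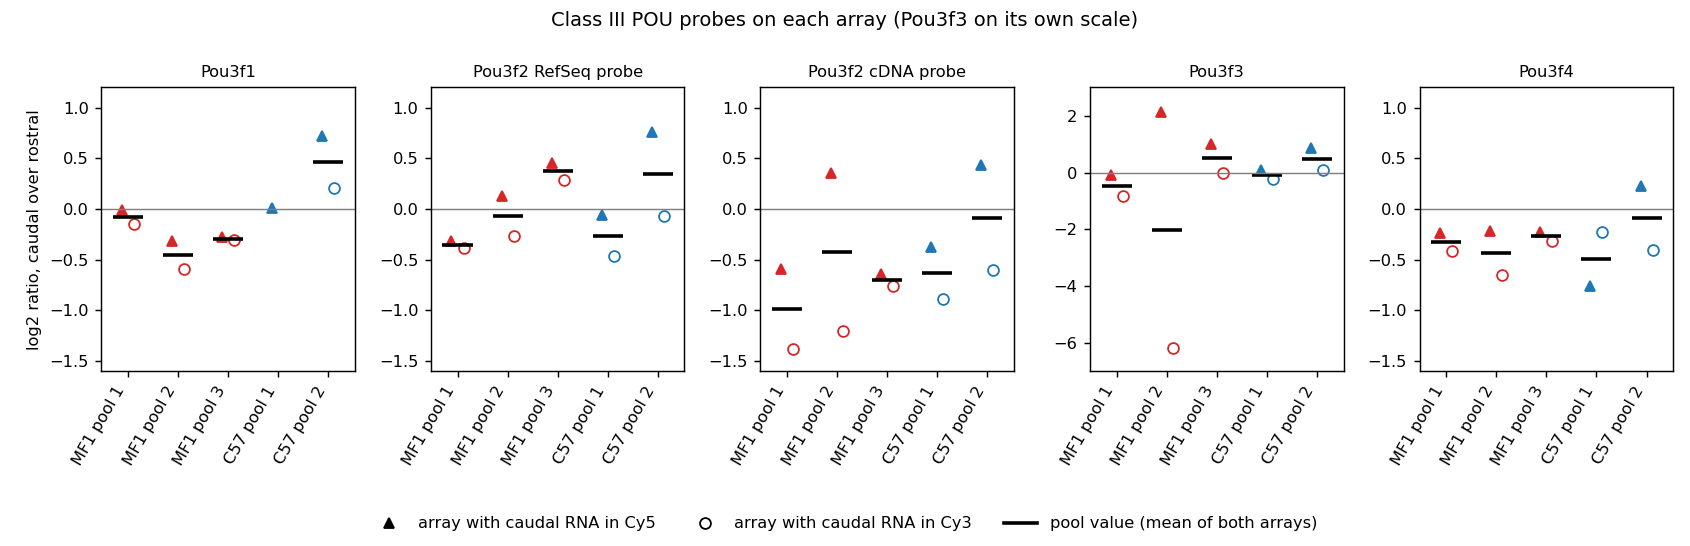
Log2 ratio of caudal over rostral RNA (vertical axis) of each class III POU probe in the 3 MF1 and the 2 C57 pools (horizontal axis). Triangles are arrays with Cy5 and open circles arrays with Cy3 on the caudal RNA, and bars the mean of both; Pou3f3 has a wider scale, and its pool MF1 2 joins 2.14 and -6.20, while all 5 Pou3f4 bars lie below 0.

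Within the strains, the cDNA probe of Pou3f2 had -0.70 ± 0.21 in MF1 (limma adjusted p = 0.995) and -0.36 ± 0.26 in C57 (adjusted p = 1). In MF1, 2.40% of tested probes were below 0 at an unadjusted p under 0.05, and this probe was the only one of the 4 class III probes among them. In C57 the share was 0.363% and held none of the 4. Pou3f4 had -0.34 ± 0.18 in MF1 and -0.29 ± 0.22 in C57. Pou3f3 had -0.67 ± 0.48 in MF1 and 0.20 ± 0.58 in C57, and the RefSeq probe of Pou3f2 had -0.02 ± 0.23 in MF1 and 0.04 ± 0.28 in C57. In limma no tested probe passed the adjusted threshold in MF1 or in C57 (0% each), where 469 and 214 had an unadjusted p under 0.05 in either direction. Leaving out MF1 pool 1 let 37 probes pass in MF1 and leaving out MF1 pool 3 let 24 pass, none of them a class III probe.

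The test of the strain difference, MF1 minus C57, gave -0.35 ± 0.34 for the cDNA probe of Pou3f2, -0.06 ± 0.37 for its RefSeq probe, -0.86 ± 0.75 for Pou3f3 and -0.05 ± 0.29 for Pou3f4. Each had a limma adjusted p of 0.999. The Pou3f3 difference was -0.18 without MF1 pool 2 and -1.44 without MF1 pool 3. Pou3f1 had a difference of -0.52 ± 0.37 (limma adjusted p = 0.999). A p under 0.05 before adjustment occurred in 1.88% of tested probes and in none of the class III probes, and 0% passed after adjustment. The errors allow differences of the size of the means themselves, so a like ratio in both strains was not shown.

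**Figure D2:**
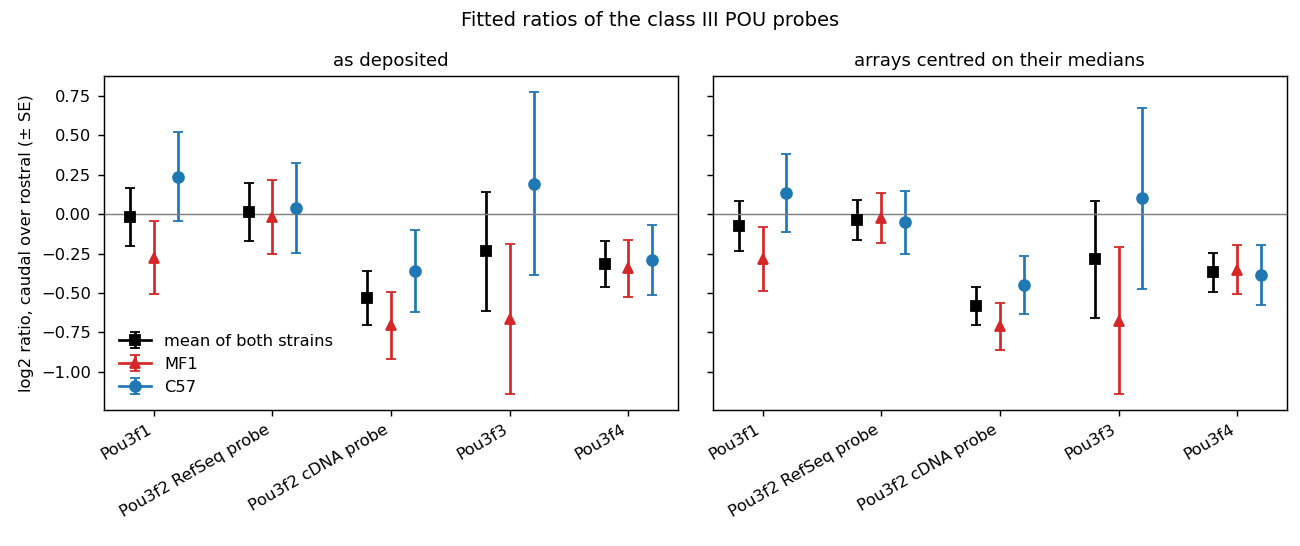
Fitted log2 ratio of caudal over rostral RNA (vertical axis, ± SE) of the 5 class III POU probes for the mean of both strains, for MF1 (3 pools) and for C57 (2 pools), as deposited and with arrays centred on their medians. The cDNA probe of Pou3f2 lies at -0.53 and, after centring, at -0.58, while its RefSeq probe lies near 0 in both panels.

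Every member gave a higher mean on the 5 arrays whose caudal RNA carried Cy5, here caudal-Cy5 arrays, than on the caudal-Cy3 arrays, of which there were 4 for Pou3f1 and 5 for the others. So did 80.2% of all tested probes, and in each pool the array median was higher on the caudal-Cy5 array. The cDNA probe of Pou3f2 averaged -0.17 on caudal-Cy5 arrays and -0.97 on caudal-Cy3 arrays. On caudal-Cy5 arrays it had -0.59, 0.35 and -0.64 in MF1 and -0.38 and 0.43 in C57. On caudal-Cy3 arrays it had -1.38, -1.21 and -0.76 in MF1 and -0.89 and -0.60 in C57. It was below 0 on 3 of 5 caudal-Cy5 arrays and on 5 of 5 caudal-Cy3 arrays. The fitted mean of both strains was -0.13 with caudal-Cy5 arrays alone and -0.93 with caudal-Cy3 arrays alone. The difference between the orders, 0.80, was exceeded by 24.6% of tested probes, and its part in the result was not tested.

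Pou3f4 had means that lay closer together, -0.24 on caudal-Cy5 and -0.40 on caudal-Cy3 arrays. On caudal-Cy5 arrays it had -0.24, -0.21 and -0.23 in MF1 and -0.76 and 0.23 in C57. On caudal-Cy3 arrays it had -0.42, -0.65 and -0.31 in MF1 and -0.23 and -0.40 in C57. It was below 0 on 9 of 10 arrays, a share of arrays reached by 0.740% of the probes measured in all 5 pools, and the exception was the caudal-Cy5 array of C57 pool 2. That array had the highest median of all 10, 0.67, and relative to it Pou3f4 was negative. Relative to the array medians Pou3f4 was again negative on 9 of 10 arrays. The exception was then the caudal-Cy3 array of MF1 pool 1, at 0.03. A larger difference between the means of the dye orders was found in 81.9% of tested probes. Those means join opposite differences. The caudal-Cy5 value of Pou3f4 was below the caudal-Cy3 value in C57 pool 1 (-0.76 and -0.23) and above it in the other pools. The close means thus do not show a small dye dependence within pools.

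The RefSeq probe of Pou3f2 averaged 0.19 on caudal-Cy5 and -0.18 on caudal-Cy3 arrays, so the sign of its mean followed the dye. Its caudal-Cy5 arrays gave -0.32, 0.13 and 0.46 in MF1 and -0.06 and 0.76 in C57. Its caudal-Cy3 arrays gave -0.39, -0.27 and 0.29 in MF1 and -0.46 and -0.07 in C57. Pou3f3 did the same at a larger scale, with 0.80 on caudal-Cy5 and -1.44 on caudal-Cy3 arrays, a difference that 2% of tested probes exceeded. Its caudal-Cy5 arrays gave -0.10, 2.14 and 1.02 in MF1 and 0.08 and 0.87 in C57. Its caudal-Cy3 arrays gave -0.83, -6.20 and -0.02 in MF1 and -0.24 and 0.07 in C57. Pou3f1 averaged 0.03 on caudal-Cy5 and -0.21 on caudal-Cy3 arrays. The median size of the difference between dye orders over all tested probes was 0.43.

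**Figure D3:**
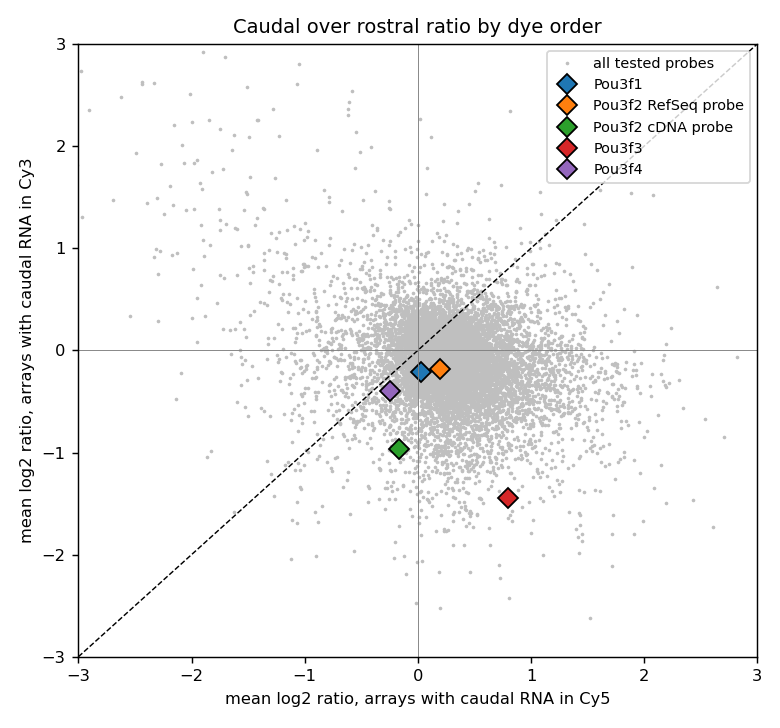
Mean log2 ratio of caudal over rostral RNA for caudal-Cy5 (horizontal axis) and caudal-Cy3 arrays (vertical axis), for the tested probes (grey) and the 5 class III POU probes (diamonds); the dashed line marks equal values, and 7 of 11855 probes lie beyond the axes. The cDNA probe of Pou3f2 and Pou3f4 are below 0 on both axes, whereas Pou3f3 and the RefSeq probe of Pou3f2 are on opposite sides of 0.

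In the order of their means over pools, the members ran as the cDNA probe of Pou3f2 (-0.57 ± 0.33, SD), Pou3f4 (-0.32 ± 0.16), Pou3f3 (-0.32 ± 1.04), Pou3f1 (-0.09 ± 0.40, 4 pools) and the RefSeq probe of Pou3f2 (0.01 ± 0.34). The mean difference of each neighbouring pair was smaller than its SD over pools. The cDNA probe of Pou3f2 minus Pou3f4 averaged -0.24 with an SD of 0.29 (exact sign-flip permutation p = 0.25, n = 5 pools), and the RefSeq probe minus Pou3f4 averaged 0.33 with an SD of 0.25 (exact p = 0.125). Against 0, the exact permutation p was 0.0625 for the cDNA probe of Pou3f2 and for Pou3f4, 0.6875 for Pou3f3 and 0.9375 for the RefSeq probe. With 4 pools Pou3f1 had 0.75, where 0.125 is the smallest possible value.

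The 4 tested class III probes, of which 2 read Pou3f2, had a median of -0.28, set beside 0.09 for all tested probes. By pool their median was -0.41, -0.43 and 0.05 in MF1 and -0.38 and 0.13 in C57. Relative to the median of all tested probes in the same pool, it lay between -0.56 and -0.10. Of the other POU genes on the array, 6 probes were tested and 3 lay on each side of 0, with a median of -0.03. None had an unadjusted p under 0.05. Pou2f3, a factor of tuft cells and keratinocytes, had 0.21 ± 0.21, and Pou5f1, the pluripotency factor, had -0.09 ± 0.17. Pou6f1, a class VI factor of the brain, had -0.14 ± 0.26, and Pou2f2, a lymphoid octamer factor, had 0.07 ± 0.14 on 1 of its 2 probes and -0.11 ± 0.24 on the other.

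SOX proteins, which share enhancers with class III POU factors in neural progenitors, were read by 10 tested probes, of which 8 were above 0 and 2 below, with a median of 0.13. Over all tested probes 69.4% were above 0, with a median of 0.09, and every list count here and below stands beside that share. None of the SOX probes reached an unadjusted p of 0.05. Sox1, a SoxB1 progenitor factor, had 0.31 ± 0.15, and Sox4 and Sox11, SoxC factors of new neurons, had 0.27 ± 0.18 and, on the Sox11 probe of smallest p, 0.23 ± 0.14. The other Sox11 probes had 0.23 ± 0.18 and 0.02 ± 0.13. Sox2 was on the other side of 0, at -0.164 ± 0.145. Among 6 tested probes of genes proposed as class III POU targets, 4 were above 0 and none reached an unadjusted p of 0.05 (median 0.09). Fabp7, the fatty acid binding protein of radial glia, whose enhancer class III POU factors bind, had -0.29 ± 0.14, with -0.52 in MF1 and -0.05 in C57. Eomes, the factor of intermediate progenitors, had 0.29 ± 0.15.

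Of 7 proneural and Notch pathway probes 5 were above 0, with a median of 0.29, and of 0.03 in MF1 and 0.50 in C57. Neurod1, a factor of differentiating neurons, had 0.74 ± 0.14 (limma adjusted p = 0.983), and Neurog2, the proneural factor of the dorsal telencephalon, 0.34 ± 0.16. In MF1 they had 0.645 and 0.026, and in C57 0.829 and 0.645. All 5 upper layer probes, for the layers that Pou3f2 and Pou3f3 serve later, were above 0 with a median of 0.05, below that of all tested probes. The largest of them were Lhx2, a selector of cortical identity, at 0.32 ± 0.15 and Mef2c, a MADS factor, at 0.22 ± 0.16. Of 11 deep layer probes 7 were above 0 (median 0.08), and those of smallest p pointed apart, Nr4a2 at 0.62 ± 0.19 and Foxp2 at -0.61 ± 0.18.

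Other cell types could be part of the dissected pieces. Markers of progenitors, in which class III POU genes are known to be active, had a median of 0.02 over 11 probes, 6 above 0 and 5 below. The lowest was a probe of Slc1a3, a glutamate transporter, at -0.54 ± 0.16, and the other Slc1a3 probe had -0.147 ± 0.455. Neuron markers were above 0 on 10 of 11 probes, with a median of 0.27, and 2 of them had an unadjusted p under 0.05, Neurod1 and the helix-loop-helix factor Nhlh2 (0.62 ± 0.17); over all tested probes 69.4% were above 0 and 1.98% were so at that p. Cortical hem and choroid plexus markers were above 0 on 5 of 6 probes (median 0.48), led by Ttr at 1.68 ± 0.19.

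Of the marker lists, those of ventral telencephalon (-0.115), mesenchyme (-0.14) and surface ectoderm (-0.57) had medians on the side of the cDNA probe of Pou3f2 and of Pou3f4. The ventral telencephalon list had 5 probes above and 5 below 0, between -0.99 and 0.33, and its lowest members were the striatal homeobox genes Dlx1 (-0.99 ± 0.24) and Dlx2 (-0.76 ± 0.15), with -1.69 and -1.58 in MF1 and -0.28 and 0.06 in C57. Its median by pool was -0.65, -0.31 and 0.25 in MF1, over 10, 8 and 9 measured probes. In C57 it was -0.31 and 0.35, over 10 probes each. The surface ectoderm list was below 0 on 4 of 4 probes, between -1.45 and -0.13, led by the keratin Krt18 (-1.45 ± 0.19) and the epidermal factor Trp63 (-0.80 ± 0.15), with -2.61 and -1.25 in MF1 and -0.28 and -0.35 in C57. Its median by pool was -0.55, -0.57 and -1.55 in MF1, over 3, 4 and 4 measured probes. In C57 it was -0.38 and 0.09, over 4 probes each. The MF1 medians of both lists thus join different sets of probes. Class III POU genes are active in ventral telencephalon as well, and the part of either tissue in the Pou3f2 and Pou3f4 ratios was not tested.

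Of the remaining lists, Cajal-Retzius markers had 5 of 6 probes above 0 (median 0.09), with Trp73 at 0.94 ± 0.33 and Reln at -0.65 ± 0.25. Diencephalon markers had 3 of 5 above 0 (median 0.09) and neural crest and Schwann cell markers, the cells of the peripheral role of Pou3f1, 2 of 3 (median 0.05). Blood markers were above 0 on 6 of 6 probes (median 0.41), with a median of 0.08 in MF1 and 0.62 in C57. Of these, 2 had an unadjusted limma p under 0.05, as had 1.98% of all tested probes above 0. Mesenchyme markers were above 0 on 2 of 5. Cortical gradient factors had 9 of 13 above 0 (median 0.10). No probe of any list passed the adjusted threshold.

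**Figure D4:**
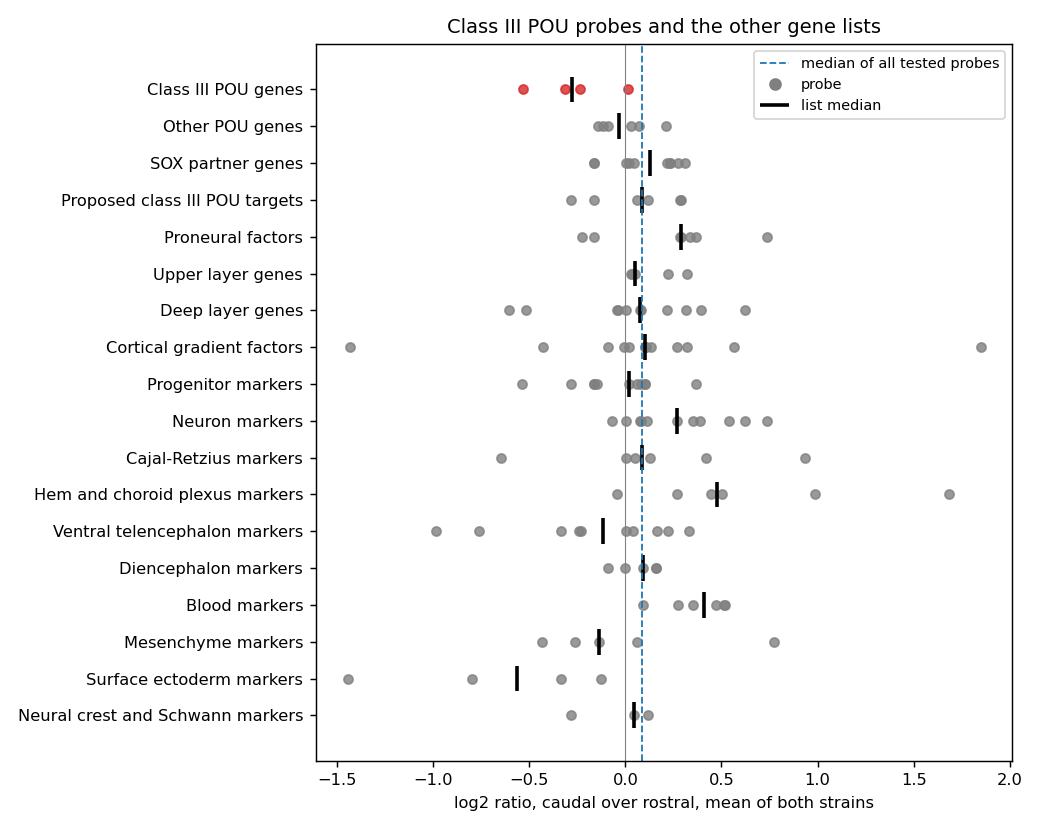
Log2 ratio of caudal over rostral RNA, mean of both strains (horizontal axis), of each tested probe (points) in the class III POU genes and the other gene lists (rows), with the list median (black bars) and the median of all tested probes, 0.09 (dashed). The class III POU probes lie between -0.53 and 0.01, with a median of -0.28.

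The patterns most like those of the members were sought over the 10 arrays, among probes with 1 gene symbol measured on all of them, by the root mean square of the difference between log2 ratios. For Pou3f4 these were Fam13c (0.18), Cdr2 (0.20) and Tlx1 (0.20), and for the cDNA probe of Pou3f2 they were Ppargc1a (0.28), Rtkn (0.32) and Bmp2k (0.38). The RefSeq probe of Pou3f2 was closest to Sdad1 (0.10), Wbp4 (0.11) and Amer2 (0.12). Pou3f3 had no near pattern, its closest being Dyrk1a at 0.55, Cd8a at 0.60 and Crkl at 0.61. Probes of the member's own gene were left out, so the Pou3f2 probes could not match each other. Pou3f1, not measured on every array, was not in the search. Within these limits, no probe of another class III gene was among the 3 closest patterns of a member. Only those 3 were kept of 7529 or 7530 probes compared, so their absence does not show whether the members vary alike. The arrays share dye and array shifts, which all probes carry.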

How the data were processed

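Caudal and rostral RNA of 5 pools were compared on 10 arrays, 2 per pool with the dyes exchanged. The authors' deposited table holds log2 ratios of both channels, a unit read from the values; for the scanner and background correction, nothing is stated in the sources read here. Trizol extraction and cDNA amplification are recorded per the labels. A C57 set beyond the 2 pools is not analysed here.

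Ratios were read as Cy5 over Cy3 and turned to caudal over rostral by the dye labels. The 436 values at a shared ceiling of 16.61 and values given as null were treated as missing, control spots were left out, and the arrays of a pool were averaged. Arrays were not centred. The fit used limma (version 3.58.1, R 4.3.3; lmFit and eBayes) with 1 coefficient per strain over the 11855 probes measured with both dyes in at least 2 pools of each strain (2.69 prior and 3 residual degrees of freedom). P-values are two-sided and adjusted by Benjamini-Hochberg over all tested probes at a threshold of 0.05; errors are moderated SE unless named SD. Exact sign-flip permutation tests over pools served single ratios and probe pairs. The procedure was tested on simulated data.

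Of 21766 probes, 16632 carried 1 gene symbol, 139 several and 4995 none in the platform annotation; 15952 symbols were matched by gene identifier to RefSeq genes of GRCm38.p6, and none changed. The members and gene lists were chosen with earlier results of these data known. All member probes were named, and from most lists probes of smallest p, with up to 4 for POU and SOX genes. The blood, mesenchyme, diencephalon and neural crest lists were described by counts and medians, and the hem and choroid plexus list by Ttr alone. Etv1, Nr2f1, Fgf17, Fgf8, Pax6, Sox2, the other Sox11 probes and the second Pou2f2 and Slc1a3 probes also follow from values seen. Alternatives covered centring, scaling, ceiling values, the probe filter, single dye orders, a fit of single arrays, averaging probes of a gene, the variance model and leaving out each pool. The pool numbers of the strains were checked as pairs: deviations from the strain means correlated at 0.13 for number 1 and -0.02 for number 2, and the pools come from different litters, so they were not paired. The number of arrays limits the precision. Python 3.11.15 and matplotlib 3.10.9 drew the figures.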

Additional observations from a re-analysis of the deposited data

Results flagged for a closer look

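Pou3f1 had opposite signs in the strains: all 3 MF1 pools were below 0 and both C57 pools above it, with a strain difference of -0.52 ± 0.37, MF1 minus C57 (limma adjusted p = 0.999). The C57 value rests on 1 complete pool and, for pool 1, on 1 array at 0.01. Of the 15388 probes with a value in all 5 pools, 1 dye allowed, 13.2% had every MF1 pool below every C57 pool. Leaving out a pool, the strain difference of Pou3f1 lay between -0.74 (without C57 pool 1) and -0.29 (without C57 pool 2). After centring of the arrays it was -0.42, with the strains overlapping.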

How the results depend on the processing

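No class III POU probe passed an adjusted p of 0.05 under any alternative. The cDNA probe of Pou3f2 kept a mean below 0 throughout, between -0.93 and -0.13 (limma adjusted p 0.35 to 1), as did Pou3f4, between -0.45 and -0.22 (0.499 to 1). After centring, counts of probes past the threshold stayed at 0, and the RefSeq probe of Pou3f2 had a mean of -0.038 (-0.035 over pools), a C57 value of -0.052 and a strain difference of 0.028, and Pou3f4 a strain difference of 0.032; fitting the centred arrays singly with a dye term gave the same values. Centring with scaling gave -0.058, -0.086 and 0.056 for the RefSeq probe, strain differences of 0.092 for the cDNA probe and 0.325 for Pou3f4, and 1 probe past the threshold for the mean and 2 for C57. Fits of single arrays passed 1 probe for the mean, Ttr, and after centring 8 for the mean and 2 for C57.

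Caudal-Cy5 arrays alone gave Pou3f3 a mean of 0.747 (0.801 over pools), an MF1 value of 1.018 and a strain difference of 0.542, and Pou3f1 a mean of 0.083 (0.026 over pools). They gave the RefSeq probe 0.089 in MF1, the cDNA probe 0.027 in C57 and Pou3f4 a strain difference of 0.038. Caudal-Cy3 arrays alone gave the RefSeq probe a mean of -0.195 (-0.181 over pools), -0.267 in C57 and a strain difference of 0.144, and Pou3f3 -0.085 in C57. With the Pou3f2 probes averaged, the mean was -0.259 and the C57 value -0.158.

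Leaving out each pool in turn, the RefSeq probe ranged from -0.139 to 0.164 for the mean, -0.211 to 0.151 in MF1, -0.262 to 0.345 in C57, -0.362 to 0.245 for the strain difference and -0.085 to 0.097 over pools. Pou3f3 ranged from -0.526 to 0.105 for the mean and over pools, -1.248 to 0.016 in MF1 and -0.081 to 0.471 in C57. The strain difference of Pou3f4 ranged from -0.255 to 0.147, the mean of Pou3f1 from -0.131 to 0.095 and its value over pools from -0.276 to 0.030. Probes past the threshold in MF1 numbered 0 to 37; leaving out MF1 pool 1 gave 37 and MF1 pool 3 gave 24. The cause of these changes was not tested. With the pool number as a replicate block, the strain difference was -0.348 for the cDNA and -0.252 for the RefSeq probe, -1.443 for Pou3f3, -0.090 for Pou3f4 and -0.506 for Pou3f1 (limma adjusted p 0.947 to 0.976), and no call changed.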

Other observations

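The octamer, the motif that POU proteins are known to bind, was present in the RefSeq promoter windows of 116 genes with tested probes. Of their 123 probes, 85 were above 0 and 38 below, with a median of 0.11, against 0.09 for all tested probes, of which 69.4% were above 0. At an unadjusted limma p under 0.05 there were 6 above 0 and 1 below, against 235 and 132 of the 11855 tested probes. None passed the adjusted threshold.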
